A study of Mus musculus with 20 samples.

Results

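The Hox genes encode homeodomain transcription factors, and the array carried 43 probes, printed as 61 spots, for 39 of them, out of 39429 probes for all genes. A probe was taken as a Hox probe where the scanner file gave it a name made of Hox, a cluster letter from a to d and a number. The probes covered 11 genes of the Hoxa cluster, 10 of Hoxb, 9 of Hoxc and 9 of Hoxd. After probes that were well above background on fewer than 3 of 18 arrays were left out, 22 Hox genes were tested among 21439 genes, namely 9 Hoxa, 8 Hoxb, 1 Hoxc and 4 Hoxd genes.

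RNA came from proximal colon organoids, which are epithelial cultures grown from crypts in Matrigel, of male mice about 40 days old. WT organoids gave 1 array per medium, and organoids from Braf+/LSL mice, with 1 copy of a BrafV600E allele that Cre can activate, gave 3 lines numbered 1 to 3. Each line was studied as EV organoids, which received the lentiviral backbone alone and so keep the allele unactivated, as BRAF organoids, in which lentiviral Cre had activated the oncogene 5 months earlier, and as selected organoids, which carry the activated oncogene and had been grown in base medium lacking stem-cell niche factors. Every culture was placed for 48 h either in ENSW medium, the growth medium with the niche factors EGF, Noggin, R-Spondin and Wnt3a, or in base medium, which makes 3 arrays for each of 6 groups beside the 2 WT arrays. The share of cells with the activated allele is not given in the labels.

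Hox genes lie in 4 clusters, and the order of genes along a cluster matches the order of their expression from head to tail in the embryo, with low numbers toward the head and high numbers toward the tail. The adult gut keeps a regional Hox code in both its epithelium and its mesenchyme. Hox proteins bind DNA together with Pbx and Meis cofactors, retinoic acid and the caudal-type factors are known to switch on Hox genes, trithorax complexes keep them active and Polycomb complexes keep them silent.

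The level of a probe is its log2 processed signal minus the 75th percentile of its array. Levels of different probes are not comparable, because each probe has its own efficiency. Between 59.6% and 65.2% of spots were well above background on each array. All 12 epithelial marker genes examined were above background in each of the 8 groups, and in selected organoids 3 of them were lower than in EV in ENSW medium and 9 in base medium. Their summed log2 level was 10.50 to 10.58 in EV and 9.12 to 10.00 in selected organoids in ENSW medium, and 11.25 to 11.35 and 9.05 to 10.52 in base medium. Of 14 mesenchymal markers, each group had between 4 and 7 that passed the background flag on any of its arrays, and the fibroblast genes Col1a1, Dcn and Lum passed it on none of the 20. Their summed log2 level was 0.73 to 2.32 in EV and 0.79 to 2.19 in selected organoids in ENSW medium, and 2.17 to 3.63 and 0.21 to 1.70 in base medium. Of the 7 tested mesenchymal markers, 2 were called lower and 0 higher in selected than in EV organoids in each medium. Of all genes, 5.14% were lower in ENSW and 23.2% in base medium. Thy1 was at least 10.4-fold lower in ENSW and 174-fold in base medium, and Pdgfrb at least 2.31-fold and 1.88-fold. Both were above background on 0 of 3 selected arrays in each medium. Over the 7 tested mesenchymal markers, however, the median difference was 0.39 in ENSW and 0.02 in base medium. The part of either marker group in the Hox differences was not tested. The arrays lay on 6 slides. The EV arrays shared no slide with the BRAF or selected arrays, and in comparisons with EV the slide and the type of organoid cannot be told apart, whereas selected line 3 shared a slide with BRAF line 1. P-values rest on the spread among the 3 lines within a group, pooled over the 6 groups. Unless a block is named, they treat the arrays of a culture in both media as independent. The labels do not say whether the lines came from separate mice.

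On the mm9 build used by the array, the Hox probes spanned chr6:52105392-52209039 for Hoxa, chr11:96057854-96228510 for Hoxb, chr15:102759058-102867272 for Hoxc and chr2:74509248-74603059 for Hoxd. Which exon or UTR each probe matched was not determined. RefSeq promoter windows of 300 bases were matched by symbol for 22 of the 39 genes. The windows of the 3 Hoxd genes called lower in selected than in EV organoids, and of a gene called higher there in ENSW medium, follow on GRCm38.p6, all on the plus strand: chr2:74711743-74712042 for Hoxd3, chr2:74721728-74722027 for Hoxd4 and chr2:74704365-74704664 for Hoxd8, the genes called lower, and chr11:96318017-96318316 for Hoxb4, the gene called higher. Capitals mark TTTAT, the core bound by caudal-type factors, on either strand (ATAAA on the printed strand).
Hoxd3: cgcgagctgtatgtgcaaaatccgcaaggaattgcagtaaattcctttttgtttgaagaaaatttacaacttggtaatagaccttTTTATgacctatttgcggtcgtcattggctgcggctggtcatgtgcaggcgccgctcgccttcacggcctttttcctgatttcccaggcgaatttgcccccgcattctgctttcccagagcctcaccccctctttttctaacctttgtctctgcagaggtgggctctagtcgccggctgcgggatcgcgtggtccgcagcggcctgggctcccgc
Hoxd4: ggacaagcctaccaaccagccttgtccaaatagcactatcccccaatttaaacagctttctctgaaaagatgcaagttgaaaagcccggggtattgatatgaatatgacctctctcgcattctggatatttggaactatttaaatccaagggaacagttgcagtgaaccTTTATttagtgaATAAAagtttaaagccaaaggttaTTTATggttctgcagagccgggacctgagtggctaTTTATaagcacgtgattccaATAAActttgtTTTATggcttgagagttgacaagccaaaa
Hoxd8: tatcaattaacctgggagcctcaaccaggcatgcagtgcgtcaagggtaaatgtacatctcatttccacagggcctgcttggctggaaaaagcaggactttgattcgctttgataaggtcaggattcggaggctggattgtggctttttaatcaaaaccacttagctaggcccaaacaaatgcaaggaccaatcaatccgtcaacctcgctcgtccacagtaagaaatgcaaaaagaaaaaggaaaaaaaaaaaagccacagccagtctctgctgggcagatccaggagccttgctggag
Hoxb4: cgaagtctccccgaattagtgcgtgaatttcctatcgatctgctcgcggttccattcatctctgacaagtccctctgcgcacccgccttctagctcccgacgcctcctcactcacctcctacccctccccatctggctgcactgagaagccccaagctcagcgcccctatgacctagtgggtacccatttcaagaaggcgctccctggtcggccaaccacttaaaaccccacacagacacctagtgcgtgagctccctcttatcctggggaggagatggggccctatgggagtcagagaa
The Hoxd4 window held the core 6 times, as did the Hoxb8 window, so that 8.33% of the 24 Hox windows and 0.502% of all 32851 windows held it 6 times or more. As this cutoff is the count of those same windows, the shares cannot show an excess of the core in Hox windows. The Hoxd3 window held it 1 time, and the Hoxd8 and Hoxb4 windows did not hold these letters. At least 1 match was present in 9 of 24 Hox windows (37.5%) and in 40.0% of all windows. The Hoxd4 window also held 4 CG dinucleotides and the Hoxd8 window 6, against 20 in Hoxd3, 14 in Hoxb4 and a median of 14.5 over the Hox windows. Over all windows the median was 7. A count of 4 or fewer was found in 12.5% of the Hox windows and in 38.0% of all windows.

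The Hox genes above background in colon organoids lay mainly in the Hoxb cluster and the low-numbered end of Hoxa. Of the 39 Hox genes, 28 passed the background flag on 1 array or more and 9 on all 20. Those 9 were Hoxa7 and Hoxa9 and the run from Hoxb3 to Hoxb9. Hoxb2 was above background on 15 arrays, and Hoxb1 and Hoxb13, the genes at the ends of the cluster, on none. From the Hoxc cluster, Hoxc5 alone passed the filter, and Hoxc9, Hoxc10, Hoxc12 and Hoxc13 were never above background. In the Hoxd cluster only Hoxd3, Hoxd4, Hoxd8 and Hoxd9 were ever above background, and Hoxd1 and the tail-end genes Hoxd10 to Hoxd13 never were. The 11 genes that were never above background had levels between -8.16 and -5.92.

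The number of Hox genes above background varied most among the selected lines. It ranged from 14 to 21 over the 6 EV arrays and from 16 to 21 over the 6 BRAF arrays. Selected line 1 had 11 such genes in ENSW and 10 in base medium, selected line 2 had 20 in both media and selected line 3 had 16 in both. Line 2 had all 11 Hoxa genes above background, and line 1 had 3. All 6 selected arrays had 0 Hoxd genes above background, as did the WT array in base medium, while the WT array in ENSW medium had 2.

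**Figure D1:**
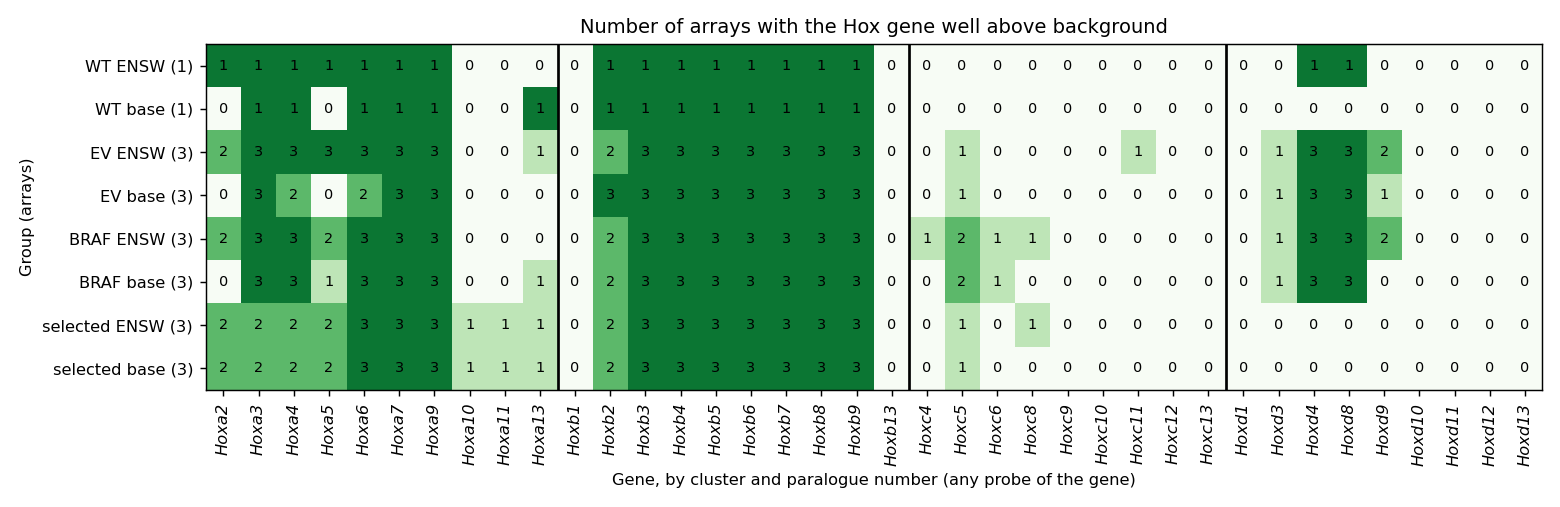
Number of arrays on which each Hox gene was well above background (number in each cell; darker green is a larger share of the group's arrays), with Hox genes in columns by cluster and number and the 8 groups in rows, array numbers in brackets. Hoxb3 to Hoxb9 are filled in all rows. The Hoxd columns are empty in both selected rows and in the WT base row. Hoxa10 and Hoxa11 are filled only in the selected rows, by 1 array in each medium.

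Hoxd4 and Hoxd8, middle genes of the Hoxd cluster that are known for roles in patterning the hindbrain and trunk, were expressed in EV and BRAF organoids of every line and were not well above background in any selected organoid. In ENSW medium the Hoxd4 level was -0.85, -0.42 and -0.80 in EV lines 1 to 3 and -0.32, -2.04 and -3.38 in BRAF lines 1 to 3. In the selected lines it was -5.53, -6.33 and -7.43. In base medium it was -2.61, -0.37 and -3.88 in EV, -1.67, -2.34 and -3.14 in BRAF and -6.04, -7.07 and -7.03 in selected organoids. The selected arrays thus lay below every EV and BRAF array in both media. The Hoxd4 signal passed the looser flag of significance over background on all 20 arrays. On the selected arrays it was not well above background, so their levels were taken only as upper bounds. As these are bulk cultures, fewer cells that express a gene and less RNA per cell cannot be told apart. The WT arrays were at -3.13 in ENSW, above background and within the BRAF range, and at -5.62 in base medium, not well above background and between the selected and the other arrays.

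Hoxd8 was also lowest in the selected organoids of each medium among the numbered lines. Its ENSW levels were -2.58, -0.47 and -2.04 in EV, -1.68, -1.79 and -3.80 in BRAF and -5.13, -7.79 and -7.47 in selected lines 1 to 3. In base medium they were -4.67, -1.91 and -5.02 in EV, -2.62, -2.83 and -5.04 in BRAF and -7.63, -7.88 and -7.44 in selected organoids. The selected arrays lay below every EV and BRAF array of the same medium, while EV and BRAF overlapped. The WT levels were -5.28 in ENSW, above background but below selected line 1, and -6.99 in base medium, not above.

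**Figure D2:**
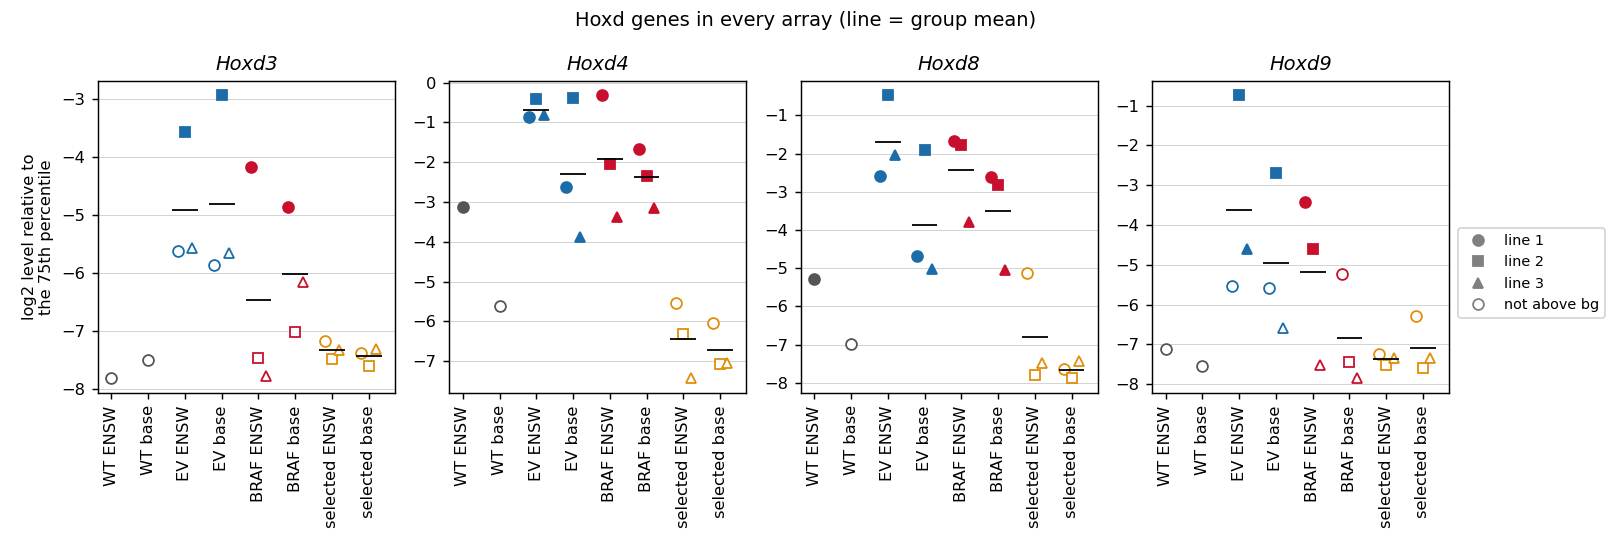
Levels (log2 relative to the array's 75th percentile) of the 4 tested Hoxd genes on each of the 20 arrays by group, with a marker shape for each line, filled where the probe was well above background, and a bar at the mean of 3 arrays. All selected markers are open, and for Hoxd4 and Hoxd8 all EV and BRAF markers are filled and lie above them.

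In ENSW medium, 4 of the 22 Hox genes differed between selected and EV organoids by limma with Benjamini-Hochberg adjustment over all genes, against 13.8% of all genes tested. Of these, 2 were higher and 2 lower, where 8.7% of all genes were higher and 5.14% lower. Hoxd4 was lower by -5.74 ± 0.84 (log2 difference ± SE, adjusted p = 0.000891) and Hoxd8 by -5.10 ± 0.95 (adjusted p = 0.00418), with 3 arrays per group. Because the selected arrays gave only a bound, these are best read as Hoxd4 at least 24.8-fold lower and Hoxd8 at least 12.1-fold lower, where the bound sets the mean of the bright group against the dimmest signal that still counted as above background on each dim array. Both calls held in all 16 alternative settings, with the Hoxd4 difference between -6.19 and -2.11 and the Hoxd8 difference between -5.93 and -1.54. The smallest sizes came with normexp background correction and quantile normalization. They are smaller than the fold bounds, which hold only for the processing behind the reported values.

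In base medium, 6 of 22 Hox genes differed between selected and EV organoids, against 48.2% of all genes. Of these, 3 were higher and 3 lower, where 25% of all genes were higher and 23.2% lower. Hoxd4 was at least 8.57-fold lower (difference -4.43 ± 0.84, limma adjusted p = 0.000589) and Hoxd8 at least 2.87-fold lower (-3.79 ± 0.95, adjusted p = 0.00455). The Hoxd8 call was lost with normexp background correction (-0.60, adjusted p = 0.219) and in the authors' deposited values (-1.15, adjusted p = 0.102). Hoxd3 was at least 1.48-fold lower (-2.61 ± 0.94, adjusted p = 0.0329), but only EV line 2 was above background, and without it the call was lost (-1.68, adjusted p = 0.155), as it was without any selected array in base medium (adjusted p from 0.0624 to 0.0754) and with normexp (-0.33, adjusted p = 0.0921), and it was lost in 7 of 16 settings in all.

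Set against BRAF organoids, which share the activated oncogene, selected organoids differed in 1 of 22 Hox genes in ENSW medium, against 0.606% of all genes, and in 2 of 22 in base medium, against 9.76%. Hoxd4 was at least 10.65-fold lower in ENSW (-4.52 ± 0.84, limma adjusted p = 0.0269) and at least 8.04-fold lower in base medium (-4.34 ± 0.84, adjusted p = 0.00639). Hoxd8 was at least 3.71-fold lower in base medium (-4.16 ± 0.95, adjusted p = 0.0155). In ENSW medium its difference was -4.37 ± 0.95, with an adjusted p of 0.0590, and of 0.0331 with the line as a block, a fit that called 2 of 22 Hox genes and 1.09% of all genes. With normexp, the Hoxd4 difference was -1.39 in ENSW (adjusted p = 0.266) and -1.003 in base medium (adjusted p = 0.193), and in the authors' values -2.16 (adjusted p = 0.135) and -1.69 (adjusted p = 0.0803). The ENSW call for Hoxd4 was also lost without selected line 2 (adjusted p = 0.0806), selected line 3 (0.128), BRAF line 1 (0.116) or BRAF line 2 (0.0845), and the base medium call for Hoxd8 without BRAF line 2 (0.0689), with normexp (-0.70, adjusted p = 0.287) and in the authors' values (-1.27, adjusted p = 0.161).

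On the slide that held both types, selected line 3 was lower than BRAF line 1 by -7.12 for Hoxd4 and -5.78 for Hoxd8 in ENSW medium, and by -5.37 and -4.82 in base medium.

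Hoxd3 and Hoxd9, the neighbours on either side of Hoxd4 and Hoxd8, were line-specific even before selection. Hoxd9 reached -0.74 in EV line 2 in ENSW medium, against -5.54 and -4.60 in EV lines 1 and 3, and in BRAF organoids it was -3.41, -4.61 and -7.52. Hoxd3 was above background only in EV line 2 (-3.58 in ENSW and -2.94 in base medium) and in BRAF line 1 (-4.18 and -4.87). In selected organoids the highest level over 6 arrays was -7.17 for Hoxd3 and -6.30 for Hoxd9, all not well above background. The Hoxd9 difference between selected and EV organoids in ENSW medium was -3.74 ± 1.29 (limma adjusted p = 0.0694, and 0.0467 with the line as a block, which called 17.3% of all genes).

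A further transcript inside the Hoxd cluster, AI448005, whose probe starts at position 74569698 of chromosome 2 on mm9, was also lower in selected than in EV organoids in ENSW medium (-1.89 ± 0.52, limma adjusted p = 0.0278). Its levels there were -1.80, -1.01 and -1.64 in EV, -1.34, -2.49 and -2.96 in BRAF and -2.96, -3.43 and -3.74 in selected organoids, and -3.27 in WT organoids. Unlike Hoxd4 it stayed well above background on all 20 arrays. It was chosen after its values were seen, as 1 of the 6 tested genes within 500 kb of the Hoxd cluster. In that comparison 8.7% of all genes were higher and 5.14% lower, and of those 6 genes 2 were higher and 1 lower. A transcript named ENSMUST00000100000, whose probe at position 74588186 also lies inside the cluster, was 1 of the higher ones, at -0.92, -0.96 and -0.81 in EV and at -0.00, -0.21 and -0.33 in selected organoids (0.72 ± 0.22, adjusted p = 0.0418). In base medium 25% of all genes were higher and 23.2% lower. Of the 6 neighbours, 1 was higher there (Lnpk, which lies beside the cluster, by 1.21 ± 0.24, limma adjusted p = 0.000788) and 0 lower. Mtx2, the neighbour on the other side, ranged from 1.26 to 2.55 over all 20 arrays.

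After 48 h without the niche factors, most tested Hoxa genes, Hoxd4 and Hoxd8 had lower means in EV organoids. Without pairing none of these differences was called, while 42.2% of all genes were. Hoxa4 (-0.41) and Hoxa6 (-0.06) differed little. Hoxa5, a regulator of lung and gut patterning, had ENSW levels of -4.31, -5.19 and -4.50 in EV lines 1 to 3 and base levels of -7.18, -7.52 and -7.39, which were not well above background. Hoxa3, which patterns the pharyngeal arches, was at -1.20, -2.32 and -1.38 in ENSW and at -3.32, -4.92 and -4.35 in base medium. Hoxa7 was at 2.61, 1.78 and 1.84 in ENSW and at 0.90, -0.77 and -1.27 in base medium. For these 3 genes all base arrays lay below all ENSW arrays. Hoxa3 and Hoxa5 were chosen after their values were seen, and the share of all genes that separated likewise was not counted. The WT pair differed the same way, with Hoxa7 at 2.21 and 0.09, Hoxa3 at -1.25 and -4.41 and Hoxa5 at -4.57 and -7.41.

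Without pairing, 0 of 22 Hox genes were called for this medium difference by limma at an adjusted p under 0.05, and 3 had an unadjusted p under 0.05, while 42.2% of all genes were called. Arrays of a culture in the 2 media deviated together, so the pair was also entered as a random block. Then 6 of 22 were called, all lower in base medium, against 58.4% of all genes in either direction and 23.6% lower. They were Hoxa2 (-1.999, adjusted p = 0.00290), Hoxa3 (-2.57, 0.0138), Hoxa5 (-2.69, 0.00190), Hoxa7 (-2.46, 0.0126), Hoxd4 (-1.60, 0.0277) and Hoxd8 (-2.17, 0.00667). Hoxa2 and Hoxa5 were above background on 0 of 3 EV arrays in base medium, which leaves Hoxa5 at least 1.66-fold lower and Hoxa2 with no bound above 1. With the line as a fixed block, Hoxa5 alone was called (adjusted p = 0.0213), against 45.4% of all genes. Without EV line 2 in base medium, Hoxd4 (-2.55, adjusted p = 0.0177) and Hoxd8 (-3.15, adjusted p = 0.0150) were called without any block, and without EV line 2 in ENSW medium Hoxa2 was (-2.50, adjusted p = 0.0479). Within the 2 slides that held EV arrays, the medium difference was -1.76 and -1.51 for Hoxd4 and -2.10 and -2.21 for Hoxd8. The second of these slides averages EV lines 2 and 3, and in EV line 2 Hoxd4 was at -0.42 in ENSW and at -0.37 in base medium. Over the cluster, 8 of 9 tested Hoxa genes had lower means in base medium, with a median difference of -1.17, against 5 of 8 Hoxb genes with a median of -0.10 and a median of 0.19 over all genes.

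All 15 proliferation genes examined were called lower in EV organoids in base medium (median -4.72), and 11 of 14 colonocyte genes higher (median 3.29). Of all genes, 42.2% were called in this comparison, in either direction. The part of the proliferation and colonocyte genes in the Hox differences was not tested.

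In BRAF organoids 8 of 9 Hoxa genes had lower means in base medium, with a median of -0.62. Hoxa7 was at 2.44, 1.35 and 1.76 in ENSW and at 1.88, 0.01 and 1.09 in base medium, and Hoxa3 at -1.39, -1.53 and -1.03 against -2.24, -3.57 and -1.78. No Hox gene was called (0 of 22, with 0 at an unadjusted p under 0.05, and 1.67% of all genes), and with the culture as a random block Hoxa2 was (-1.69, adjusted p = 0.0297, 19% of all genes), although on 0 of 3 BRAF arrays in base medium it was above background, a bound of at least 1.23-fold lower. In selected organoids 0 of 22 were called with or without the block, 0 at an unadjusted p under 0.05, against 0.00466% of all genes without and 0.014% with it.

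The difference of the responses was tested directly. For BRAF minus EV, 0 of 22 Hox genes were called by limma (0 at an unadjusted p under 0.05), against 3.5% of all genes, and for selected minus EV also 0 (0 at an unadjusted p under 0.05), against 24.2%. With the culture as a random block the second comparison called 3 of 22, against 43.1% of all genes: Hoxa2 (2.08, adjusted p = 0.0258), Hoxa5 (2.47, adjusted p = 0.0350) and Hoxb4 (-0.86, adjusted p = 0.0430), where the EV base levels of Hoxa2 and Hoxa5 were not above background. Hoxa2 was also called without a block when selected line 1 in base medium was left out (3.08, adjusted p = 0.0404).

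The 3 selected lines differed from each other in the Hoxa cluster, in the same way in both media. Since these single lines were picked out after their values were seen, they are described without a test. Selected line 1 had none of Hoxa2 to Hoxa5 above background. Its Hoxa3 level was -5.73 in ENSW and -5.88 in base medium, against -0.67 and -0.82 in selected line 2 and 0.04 and -0.24 in selected line 3.

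Hoxa7 was low in line 1 as well. It was at -3.06 and -3.58 in selected line 1, still above background, and between 1.17 and 1.85 on the other 4 selected arrays. Hoxa6, which lies between Hoxa5 and Hoxa7, was at -5.07 and -4.59 in line 1 and within -4.18 to -4.00 in the other lines, and Hoxa9 was at -3.50 and -3.82, above background. The EV and BRAF organoids of line 1 had Hoxa7 between 0.90 and 2.61.

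In selected line 2 the tail-end genes of the cluster were above background. Hoxa10 was at -0.93 in ENSW and -0.84 in base medium, and was not above background on the other 18 arrays, where its level lay between -8.17 and -6.92. Hoxa11 was at -4.80 and -4.85 and was above background only there. Hoxa13, the most tail-ward Hoxa gene and a hindgut factor, was at -2.69 and -2.36, with -2.47 and -2.50 from its second probe, and at -5.99 or lower in the other selected lines. Outside the selected lines, its first probe was above background on 3 arrays, at -5.71 to -4.84. Hoxa9 was also highest in this line, at -2.38 and -2.41, against -4.17 to -3.38 on the other 18 arrays. Selected line 3 had Hoxa2 to Hoxa9 above background and none of the tail-end genes above background.

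**Figure D3:**
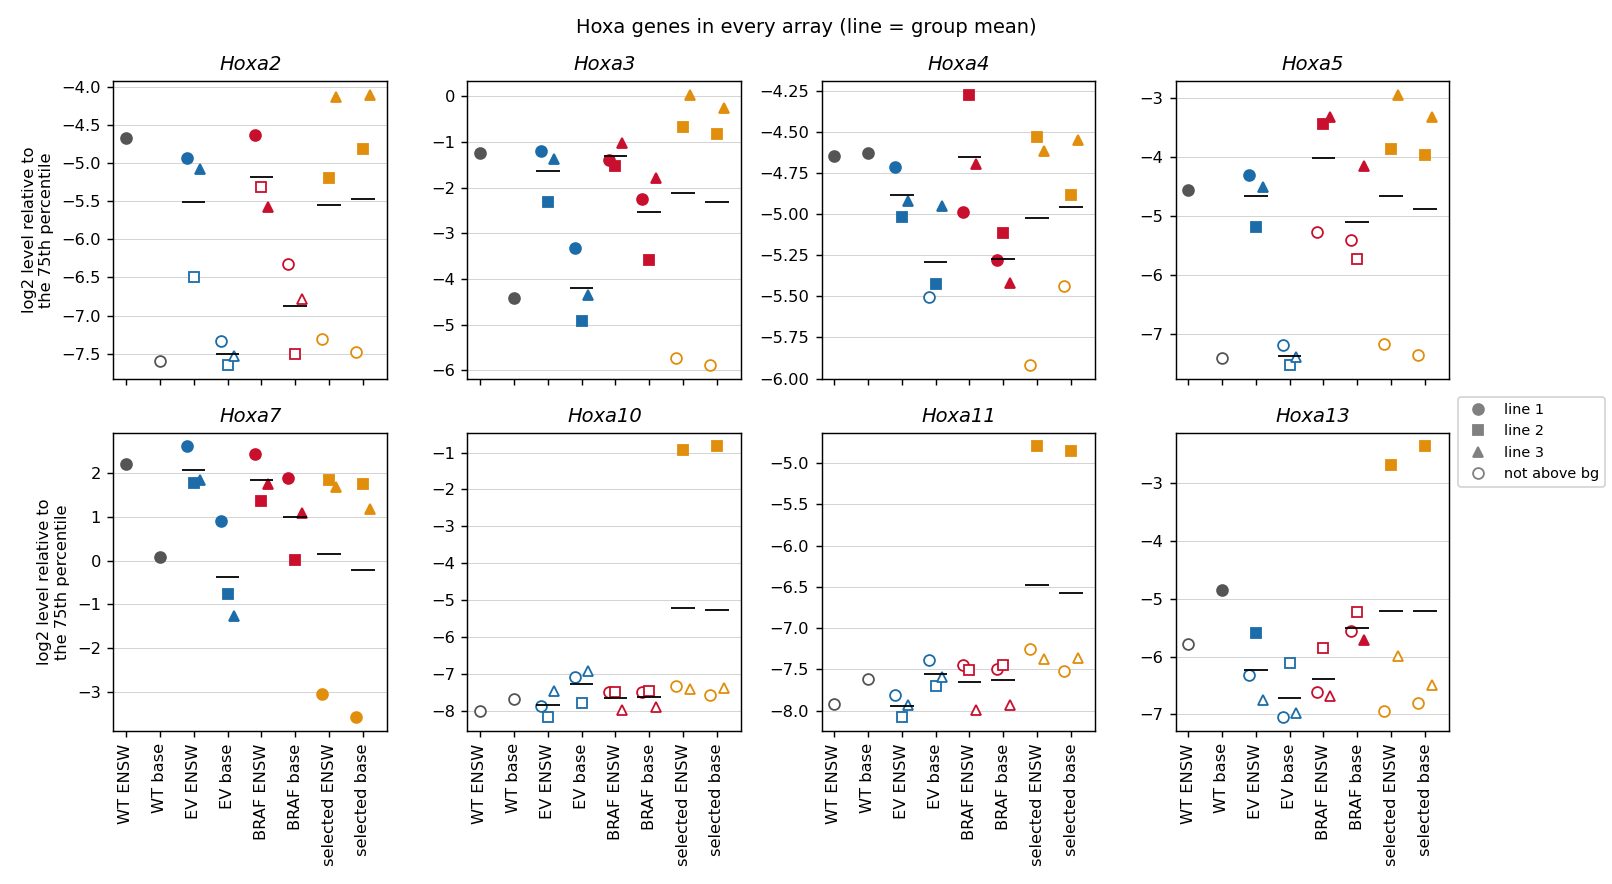
Levels (log2 relative to the array's 75th percentile) of 8 Hoxa genes on each of the 20 arrays by group, with a marker shape for each line, filled where the probe was well above background, and a bar at the mean of 3 arrays. Selected line 1 (circles) is the lowest selected line for Hoxa2, Hoxa3, Hoxa4, Hoxa5 and Hoxa7, and selected line 2 (squares) stands alone for Hoxa10, Hoxa11 and Hoxa13.

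Transcripts beside these genes moved with the lines. Hoxa11os, the antisense transcript of Hoxa11, was at -2.46 and -2.55 in selected line 2 and at -4.18 or lower on every other array. Evx1, the homeobox gene beyond Hoxa13, was at -2.69 and -2.40 in selected line 1, above background, and not above background on the 6 BRAF arrays, where it lay between -7.34 and -5.77. Its WT levels were -2.86 and -2.79, and the EV arrays lay between -5.76 and -4.06. Skap2 and Hibadh, genes on the 2 sides of the Hoxa cluster, were above background on all 20 arrays and ranged from 1.503 to 2.79 and from 1.17 to 2.58.

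Set against EV in base medium, the means of all 9 Hoxa genes were higher in selected organoids (median 0.96), and Hoxa6 alone was called. All 9 were also higher in BRAF than in EV organoids in that medium (median 1.21). In ENSW medium, 4 of the 9 had higher and 5 lower means in selected than in EV organoids (median -0.04). The SE of the difference between selected and EV in base medium was 0.83 for Hoxa2, 1.43 for Hoxa3, 1.06 for Hoxa5 and 1.35 for Hoxa7. Both arrays of selected line 1 were then left out, a choice made after its low Hoxa levels were seen. As the line was low for these genes, leaving it out raises their differences, and the p-values cannot support them. Hoxa2 (3.04, limma adjusted p = 0.000458), Hoxa3 (3.67, 0.000258), Hoxa5 (3.71, 0.000347) and Hoxa7 (1.85, 0.0304) were called higher as well in this fit. That fit called 9 of 22 Hox genes and 44.3% of all genes. Hoxa5 was called higher with the line as a block and all arrays kept (2.48, adjusted p = 0.0276), a fit that called 51.2% of all genes. Hoxa2 and Hoxa5 were above background on 0 of 3 EV arrays in base medium, so that with all arrays kept Hoxa5 had only a bound of at least 1.44-fold higher, and Hoxa2 had no bound above 1.

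Hoxa6, Hoxb3, Hoxb4 and Hoxb7 were called modestly higher in selected than in EV organoids in 1 medium or both. The counts were 2 of 22 Hox genes in ENSW and 3 of 22 in base medium. They were near or below the shares of all genes, 8.7% and 25%. Hoxa6 was at -5.20, -5.38 and -5.11 in EV and at -4.59, -4.13 and -4.11 in selected organoids in base medium, without overlap. That difference of 0.96 ± 0.24 had a limma adjusted p of 0.00431 and was called in all 16 alternative settings, with values from 0.29 to 1.11. The ENSW difference of 0.76 ± 0.24 (adjusted p = 0.0491) was lost in 13 of 16 settings, including the line as a block (0.0520), and its groups overlapped. The lowest value there was 0.13, with normexp.

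Hoxb4, known in blood stem cell self-renewal, was at -1.35, -2.05 and -1.47 in EV lines 1 to 3 in ENSW medium and at 0.15, -0.89 and -0.91 in the selected lines. The difference was 1.07 ± 0.34 (limma adjusted p = 0.0488) and was lost in 14 of 16 settings, among them each setting that left out an array (adjusted p from 0.0562 to 0.178). In base medium the selected levels were -0.33, -1.29 and -1.36 and overlapped with EV (-1.33, -1.42 and -0.85).

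Hoxb3 was at -0.01, 0.17 and -0.07 in EV and at 0.81, 0.64 and 1.02 in selected organoids in base medium (0.79 ± 0.26, limma adjusted p = 0.0229). Without EV line 1, EV line 3 or selected line 3 its adjusted p was 0.0587, 0.0679 and 0.0781. In ENSW medium the EV levels were 0.35, 0.09 and 0.10 and the selected levels 0.56, 0.99 and 1.37, a difference of 0.80 ± 0.26 (adjusted p = 0.0601, and 0.0498 with the line as a block). A second Hoxb3 probe gave 1.07 ± 0.25 in ENSW (adjusted p = 0.0161) but 0.15 ± 0.25 in base medium (adjusted p = 0.665), and it alone was higher in EV organoids in base than in ENSW medium (0.72 ± 0.25, adjusted p = 0.0343), so the 2 probes disagree on the medium.

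Hoxb7 was at 1.60, 1.75 and 1.96 in EV and at 3.06, 2.14 and 2.32 in selected organoids in base medium (0.74 ± 0.29, limma adjusted p = 0.0458). The highest value was that of selected line 1, and without it the difference was 0.46 (adjusted p = 0.209). Leaving out any EV array, or that of selected line 3, also ended the call (adjusted p from 0.0536 to 0.129).

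Hoxb6 and Hoxb9, named because they were among the 5 brightest Hox probes together with Hoxa7, Hoxb3 and Hoxb7, were called in no comparison. Hoxb6 was between 1.25 and 3.18 on all 18 arrays of the numbered lines, with both highest values, 3.00 and 3.18, in selected line 1. Hoxb9 was between -0.18 and 1.98, also with both highest values, 1.92 and 1.98, in selected line 1. Selected line 1, which lacked Hoxa2 to Hoxa5, was thus the highest of all arrays in both media for Hoxb6, Hoxb7 and Hoxb9.

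All 8 tested Hoxb genes had higher means in selected than in EV organoids in ENSW medium (median difference 0.76, against 0.11 over all genes), and 7 of 8 in base medium (median 0.44, against 0.02). Against BRAF organoids all 8 were higher in both media, with medians of 0.60 and 0.54, but 0 of 8 were called. Hoxb2 differed by line, being not above background in BRAF line 1 and selected line 1 in either medium and in EV line 3 in ENSW medium, and reaching -1.04 in selected line 3.

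**Figure D4:**
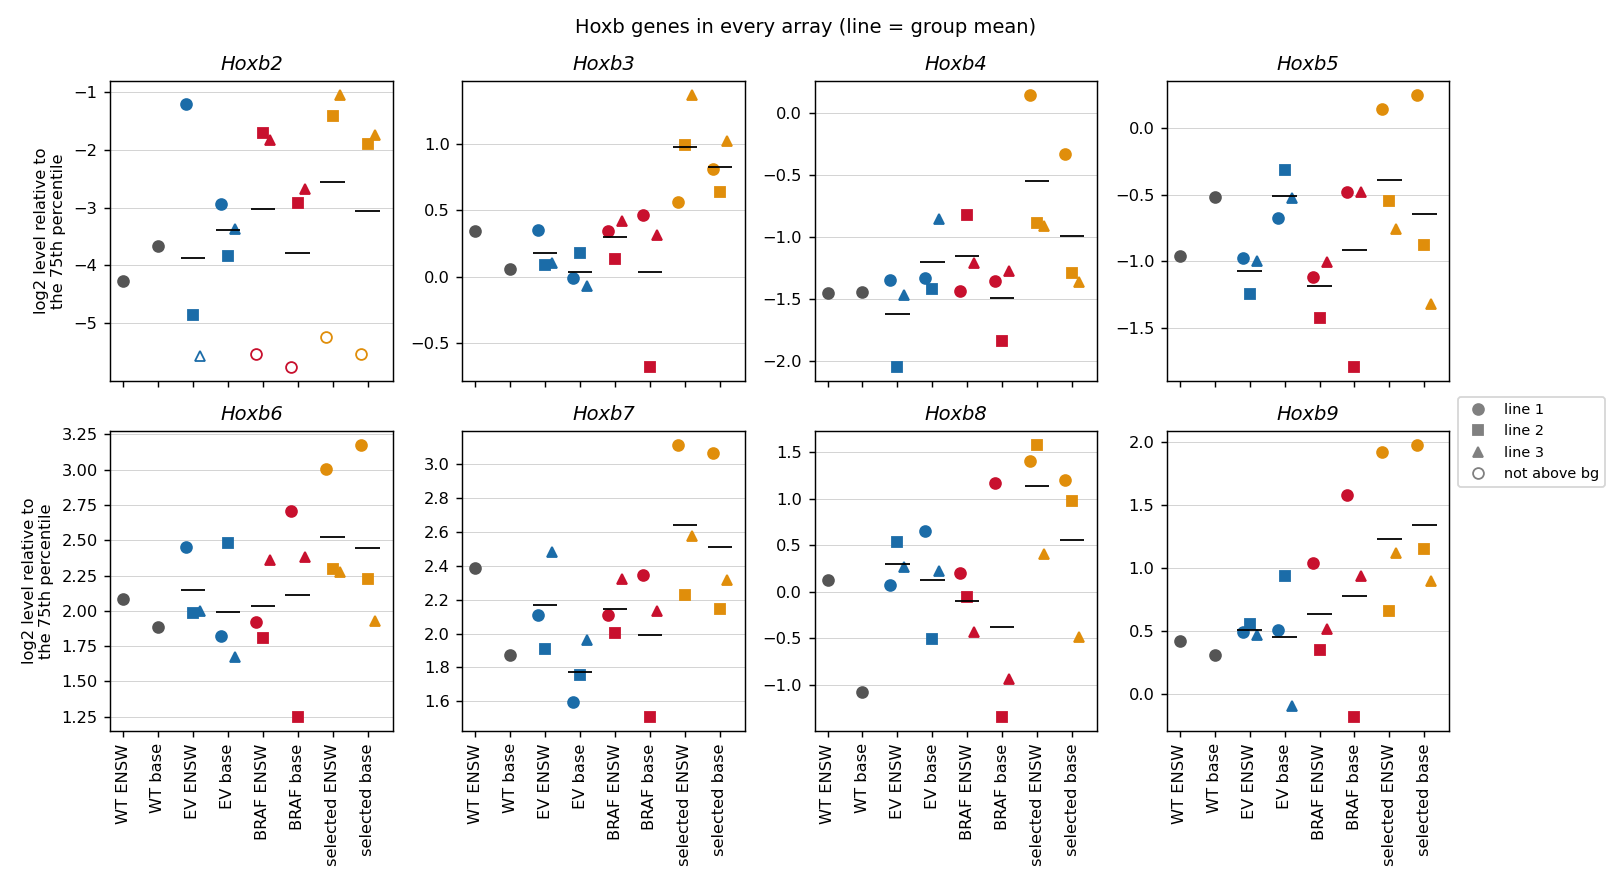
Levels (log2 relative to the array's 75th percentile) of Hoxb2 to Hoxb9 on each of the 20 arrays by group, with a marker shape for each line, filled where the probe was well above background, and a bar at the mean of 3 arrays. Apart from Hoxb2 all markers are filled, and selected line 1 (circles) is the highest marker for Hoxb6, Hoxb7 and Hoxb9 in both media.

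**Figure D5:**
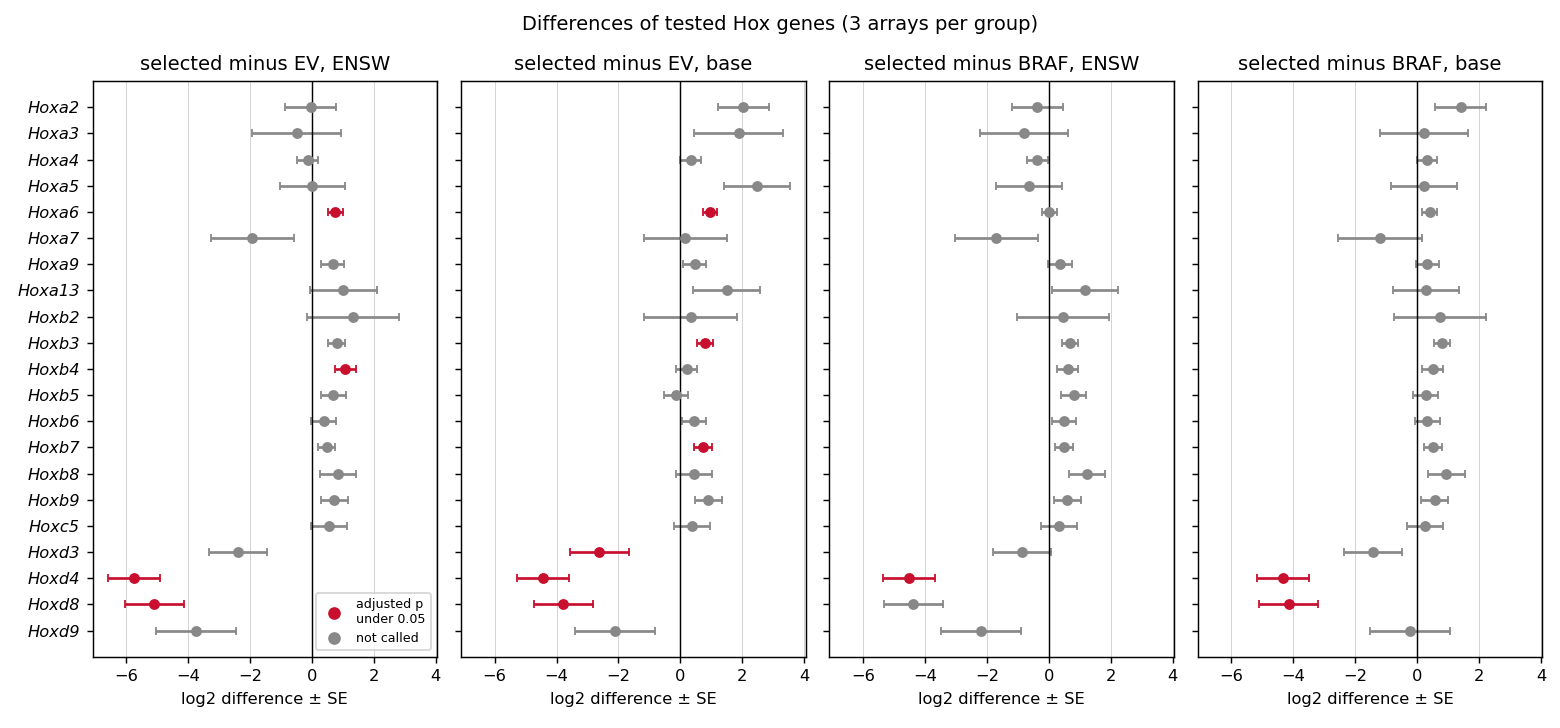
Log2 differences with SE of tested Hox genes for selected minus EV and selected minus BRAF organoids in each medium, 3 arrays per group, in red where the limma adjusted p was under 0.05. The Hoxd genes lie to the left of 0 in all 4 panels and the Hoxb genes mostly to the right.

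Activation of BrafV600E without selection was not accompanied by a called Hox change. Between BRAF and EV organoids, 0 of 22 Hox genes were called in ENSW medium by limma (1 at an unadjusted p under 0.05), against 6.29% of all genes, and 0 in base medium (3 at an unadjusted p under 0.05), against 31% of all genes. With the line as a block, 1 of 22 was called in base medium, against 35% of all genes. Hoxa6 had the smallest adjusted p in ENSW medium (0.75 ± 0.24, limma adjusted p = 0.0780), and in base medium its difference was 0.56 ± 0.24 (adjusted p = 0.0888). All 9 Hoxa genes had higher means in BRAF than in EV organoids in base medium, with a median of 1.21 against 0.03 over all genes. All 4 tested Hoxd genes had lower means in BRAF than in EV organoids in ENSW medium (median -1.38). In base medium 3 of 4 did (median -0.645). For Hoxd4 the difference between BRAF and EV was -1.22 ± 0.84 in ENSW and -0.09 ± 0.84 in base medium, with overlapping groups.

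Among genes that act with or on the Hox genes, the Hox cofactor Pbx3 was higher than in EV in base medium, by 1.95 ± 0.38 in both BRAF and selected organoids (limma adjusted p = 0.00175 and 0.000700), with ENSW differences of 0.88 (adjusted p = 0.184) and 0.01 (adjusted p = 0.987), while within EV it was lower in base medium (-1.74 ± 0.38, adjusted p = 0.00218). Of 9 tested cofactors, 1 was higher and 0 lower in selected than in EV organoids in ENSW medium, and 2 and 0 in base medium, where 8.7% and 25% of all genes were higher. Meis1, a further cofactor, was line-specific, at -1.01 and -0.65 in selected line 2 and at -2.21 and -2.20 in BRAF line 3, and not above background in EV lines 2 and 3.

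Cdx2, the caudal-type master regulator of gut identity, was at 5.39, 5.39 and 5.11 in the ENSW cultures of EV and at 4.17, 4.42 and 3.88 in those of the selected lines (-1.14 ± 0.25, limma adjusted p = 0.00931), and lower also in base medium (-1.44 ± 0.25, adjusted p = 0.000251). It was lower in BRAF than in EV organoids in ENSW (-1.01 ± 0.25, adjusted p = 0.0289). Cdx1 had a mean of 5.21 ± 0.27 in EV and of -4.89 ± 1.29 in selected organoids in ENSW medium (-10.10 ± 1.91, adjusted p = 0.00447) and was also lower in base medium (-9.75 ± 1.91, adjusted p = 0.000748). In BRAF organoids Cdx1 varied by line in ENSW medium, at 2.01, -4.70 and 0.98.

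In the retinoic acid pathway, Rarb, a retinoic acid receptor gene that retinoic acid itself induces, was lower in selected than in EV organoids in both media. In ENSW medium it was above background on 0 of 3 selected arrays and so at least 7.95-fold lower (limma adjusted p = 0.00126), and in base medium, with 1 of 3 above background, the difference was -4.53 ± 0.69 (adjusted p = 9.8e-05). Rdh10, which makes the precursor of retinoic acid, was higher in selected organoids than in EV (2.37 ± 0.30, adjusted p = 0.000280) and than in BRAF organoids (2.11 ± 0.30, adjusted p = 0.00334) in ENSW medium. Of 17 tested pathway genes, 1 was higher and 1 lower in selected than in EV organoids in ENSW medium, and 4 and 3 in base medium, where 8.7% and 5.14% of all genes were higher and lower in ENSW medium and 25% and 23.2% in base medium.

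Of 21 Polycomb genes, 6 were higher and 0 lower in selected than in EV organoids in ENSW medium, and 12 higher and 2 lower in base medium, against the same shares of all genes, 8.7% and 5.14% in ENSW and 25% and 23.2% in base medium. Cbx6, a subunit that reads the Polycomb mark, was higher in both media (2.23 ± 0.36, limma adjusted p = 0.00173, and 4.46 ± 0.36, adjusted p = 8.79e-07). Ezh2, which writes that mark, was higher in base medium (1.37 ± 0.20, adjusted p = 7.9e-05), with an ENSW difference of -0.11 (adjusted p = 0.759). Among 14 trithorax and MLL complex genes, 0 were called in ENSW medium, against 13.8% of all genes, and 5 were higher and 4 lower in base medium, against 25% and 23.2%. After selection, all 15 proliferation genes were above their EV level in base medium and 1 of 15 in ENSW medium, and 11 of 14 colonocyte genes were lower in ENSW medium, and their part in these Hox and regulator differences was not tested.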

How the data were processed

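Total RNA was labelled with Cy3 and hybridised to 1-colour Agilent mouse arrays. The deposited scanner files hold spot intensity from Feature Extraction 10.7.3.1 with mm9 probe positions, per the file headers, and the authors' table holds log2 values; limma is named in the submitters' processing notes, without a version. That table ranked spots as the median signal does (Spearman rho 1.0 on each array), its column medians lay between 5.66 and 5.68, and its background and normalization steps are not given in the sources used here. Flags of Feature Extraction (other columns) per the file headers gave detection.

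Control spots and outlier-flagged spots (2747 over 20 arrays) were left out, the 75th percentile of log2 processed signal was subtracted from each array, spots of a probe were averaged, and the 26843 probes that passed the background flag on 3 or more of 18 arrays were kept. Of several probes, the 1 with the highest mean stood for its gene. Gene names were updated through RefSeq accessions. Group means of the 6 groups were fitted with limma 3.58.1 (R 4.3.3) and eBayes, with Benjamini-Hochberg adjustment at 0.05 over all 21439 genes; WT, with 1 array per medium, was described only. In simulated data for BRAF against EV in ENSW, over 21439 genes, 81 of 100 genes changed by 2 on the log2 scale and 90 of 100 changed by 3 were recovered, with 10 false calls. Figures used Python 3.11.15 and matplotlib 3.10.9.

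Hox genes called in any comparison or among the 5 with the highest mean were named with all values; further genes (Hoxa2 to Hoxa5, Hoxa10, Hoxa11, Hoxa13, Hoxb2, Hoxd9, Evx1, Hoxa11os, Meis1, AI448005) were chosen after their values were seen. From each other list at most 3 called members per comparison were named. Some gene-level results are not reported here or drawn in the figures, while counts cover all genes. Members and lists were chosen with earlier results of these data known. Deviations of same-numbered cultures in the 2 media correlated at 0.422 to 0.874 within each type, so media were paired; across types the line numbers follow the labels, with correlations of 0.164 to 0.373 between selected and BRAF and -0.077 to 0.211 in comparisons with EV. Arrays give no counts, and 3 lines per group limit the precision. Alternatives covered background correction, normalization, the filter, probe choice, blocks for line, culture and slide, and leaving out arrays.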

Additional observations from a re-analysis of the deposited data

Results flagged for a closer look

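The first Hoxa13 probe had a base minus ENSW difference below 0 in all 3 EV lines (mean -0.48 ± 0.26, SD, n = 3) and above 0 in all 3 BRAF lines (mean 0.88 ± 0.23, n = 3). The difference of the responses was 1.37 ± 1.51 (log2 ± SE, limma adjusted p = 0.705), and only 1 EV array and 1 BRAF array were above background for this probe. The second probe did not show these signs. It was at -7.93, -7.29 and -8.07 in ENSW and at -6.96, -6.77 and -7.76 in base medium in EV lines 1 to 3, above background on none of these arrays.

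The base minus ENSW difference of Hoxb4 was above 0 in all 3 EV lines (mean 0.42 ± 0.35, n = 3) and below 0 in all 3 selected lines (mean -0.44 ± 0.04, n = 3). The difference of the responses was -0.86 ± 0.48 (limma adjusted p = 0.214), and its adjusted p was 0.0430 with the culture as a random block.

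The WT array in base medium, which entered no test, had Hoxa13 above background with both probes, at -4.84 and -4.80. No EV array in base medium was above background for either probe.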

How the results depend on the processing

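Of 185 recomputed counts of called Hox genes, 142 stayed within 1.5 times the reported count, and the cause of the others was not tested beyond what each setting changes. Of 460 recomputed single differences with an unadjusted p under 0.05, 0 reversed, 59 lost and 40 gained a call. For the medium in EV (reported count 0), normexp, quantile normalization and every probe fitted on its own gave 1 each, the slide as a random or fixed block 2, and leaving out an array 0 to 2. As the numbers pair the media of a culture, the culture as a random block gave 6, and the line as a replicate block gave 1. For the medium in BRAF (0) the culture block gave 1. For BRAF against EV in base medium (0), normexp, the authors' values, the line as a replicate block and the culture block gave 1 each. For selected against EV in ENSW (4), quantile normalization, the slide as a random block and leaving out both arrays of selected line 2 gave 2, the line as a replicate block 5, and leaving out an array 2 to 4. In base medium (6) leaving out an array gave 3 (without selected line 3) to 7, and the replicate block 7. For selected against BRAF in ENSW (1), normexp, the authors' values and leaving out both arrays of selected line 2 gave 0, the line as a replicate block, the culture block, the slide as a fixed block and leaving out both arrays of selected line 1 gave 2, and leaving out an array 0 to 2. In base medium (2), normexp and the authors' values gave 1 each, a higher Hoxb3, leaving out both arrays of selected line 1 gave 4, and leaving out an array 1 to 4 (4 without BRAF line 1, 1 without BRAF line 2). For the response of selected minus EV (0), the culture block gave 3 and leaving out an array 0 to 1. The settings that left out both arrays of a line, and the slide as a fixed block for selected against BRAF, were chosen after seeing the data. Where an array is left out, 2 arrays of its group remain and the spread is shared over groups. With the significance flag in place of the background flag, 36 Hox genes were detected instead of 28, and 27 when all spots of a probe had to be above background. Quantile normalization moved the median EV medium difference of all genes from 0.19 to 0.08. The number of called genes overall ranged with the setting from 16 to 4079 for the medium in BRAF (reported 358), 374 to 1908 for BRAF against EV in ENSW (1349), 1130 to 3701 for selected against EV in ENSW (2967), 44 to 414 for selected against BRAF in ENSW (130), 842 to 3373 in base medium (2092), 6613 to 12510 for the medium in EV (9038), 4370 to 7499 for BRAF against EV in base medium (6654), 51 to 4232 for the response of BRAF minus EV (750), 3648 to 9248 for that of selected minus EV (5192) and 1 to 3 for the medium in selected organoids (1). Dim signal limits the Hoxd and tail-end Hoxa results and those of Hoxa2 and Hoxa5 in base medium, whose low values are bounds.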
